A study of Bos taurus with 25 samples.

Results

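Liver of lactating Holstein cows given folic acid (vitamin B9) alone was compared with liver of cows given saline. The comparison took every liver array labelled B9, 3 in number (cows 39, 41 and 57), and every liver array labelled Ctl, also 3 (cows 42, 43 and 51), which are 6 of the 25 arrays of the series. All 27841 genes of the array were described. Of these, 11068 carry a gene symbol, and each array name without a symbol was counted as a gene of its own. The B9 cows received 320 mg of folic acid a week by intramuscular injection in a volume of 5 mL, and the Ctl cows received 5 mL of 0.9% NaCl. All were multiparous cows of one herd, and the liver was biopsied 64 ± 3 days after calving. Each array held the RNA of 1 biopsy of 1 cow. Whole tissue was measured, so fewer cells of a type and less RNA per cell cannot be told apart in any value given here. The question was which hepatic genes differed with a supplement of folic acid in early lactation.

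Folic acid enters the cell as a substrate of the folate cycle, whose reduced forms carry single carbon units. These units serve the synthesis of purines and thymidylate, the interconversion of serine and glycine, and the methylation of homocysteine to methionine, a step that also needs vitamin B12. The ruminant liver makes most of the animal's glucose, largely from propionate, whose entry into the citric acid cycle depends on a vitamin B12 enzyme. In early lactation the same organ takes up fatty acids released from body fat and oxidizes them, esterifies them or turns them into ketones.

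Values are log2 intensities after background correction and quantile normalization, so a difference of 1 is a doubling of the corrected signal. The level and difference of a gene are those of its brightest probe over the liver arrays, and a gene was called when any of its probes passed, that is, when limma, a linear model with moderated variances, put it at an adjusted p no higher than 0.05 together with a difference of 2-fold or more. The 6 arrays had 76.8% to 84.2% of probes well above background. The array of B9 cow 57 stood apart, with a mean correlation with the other liver arrays of 0.973 against 0.988 for the remaining 5 arrays, and the lowest median signal of the 6. The slide of Ctl cow 43 was scanned apart from the others and had a local background of 35 against 16 to 19. Hepatocyte genes marked the biopsies as liver in both groups. All 29 hepatocyte genes found on the array were well above background on the 6 arrays, with a mean level of 16.45 to 16.65 in Ctl and 16.37 to 16.78 in B9.

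No gene was called by limma. The smallest adjusted p was 0.906, and 0 of 27841 genes passed (0%). At an unadjusted limma p under 0.05, 427 genes were higher with B9 (1.53%) and 458 were lower (1.65%) on the brightest probe. Over all probes 907 were higher and 629 lower. That was 3.52% of probes, where 5% would pass with no difference anywhere. Without cow 57 the gene counts were 230 (0.826%) and 257 (0.923%), and without Ctl cow 43 they were 291 (1.05%) and 272 (0.977%). The share of probes was 1.88% without cow 57 and 2.11% without Ctl cow 43, but 6.59% without B9 cow 39 and 8.43% without B9 cow 41. It was 3.31% and 3.25% without Ctl cows 42 and 51. The 3 B9 arrays lay above all 3 Ctl arrays for 1006 genes (3.61%) and below them for 1282 genes (4.6%). For such a gene a two-sided exact permutation test gives p = 0.1, its minimum for 3 arrays against 3, so no single gene can pass 0.05 by that test. With arrays labelled at random the groups would separate at that rate over both directions. The shares of 3.61% and 4.6% together lie below it. When arrays were instead scaled to their 75th percentile, the median difference of all genes moved from 0.01 to 0.12, so the medians of several gene lists below are given under both scalings. Of the genes well above background past an unadjusted p of 0.05, 48.6% were higher with B9, and 36.8% with the processed signal of the image software. Cyber-T, the regularized test named in the methods, called 4 genes (0.0144%), all lower with B9 on the probes that passed. They were DLK1, MYOM1 and 2 transcripts that carry only an identifier of the array, ENSBTAT00000025538 and TC326817. DLK1 passed on the probes A_73_P069591 and A_73_P399776 but not on its brightest, where the Cyber-T adjusted p was 0.959. The values below are therefore differences between 3 and 3 cows, described with their spread, and none of them passed the adjusted limma test.

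DLK1, a transmembrane protein related to the Notch ligands that marks progenitor cells and restrains fat cell formation, is read by 5 probes, and all 5 were lower with B9. Cow by cow, probe A_73_P069591 gave 10.83, 12.10 and 10.76 in Ctl cows 42, 43 and 51, and 8.61, 8.89 and 8.86 in B9 cows 39, 41 and 57. The 3 treated cows lay within a narrow band below every control, and the difference was −2.44 (standard error 0.51). Probe A_73_P399776 had the same order, with 8.36, 9.50 and 8.53 in Ctl and 6.90, 7.11 and 6.96 in B9. The brightest probe, A_73_110424, read 12.43, 12.84 and 12.15 in Ctl and 11.51, 11.33 and 12.23 in B9. On this probe cow 57 sat among the controls and differed from their mean by −0.25, while on A_73_P069591 it differed by −2.37. Cows 39 and 41 lay below all controls on every DLK1 probe, and the mean of both differed from the Ctl mean by −1.06 on the brightest probe and by −2.48 on A_73_P069591. On the dimmer probe A_73_P360536, too, cow 57 (8.66) lay within the controls, 8.55 to 9.17.

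**Figure D1:**
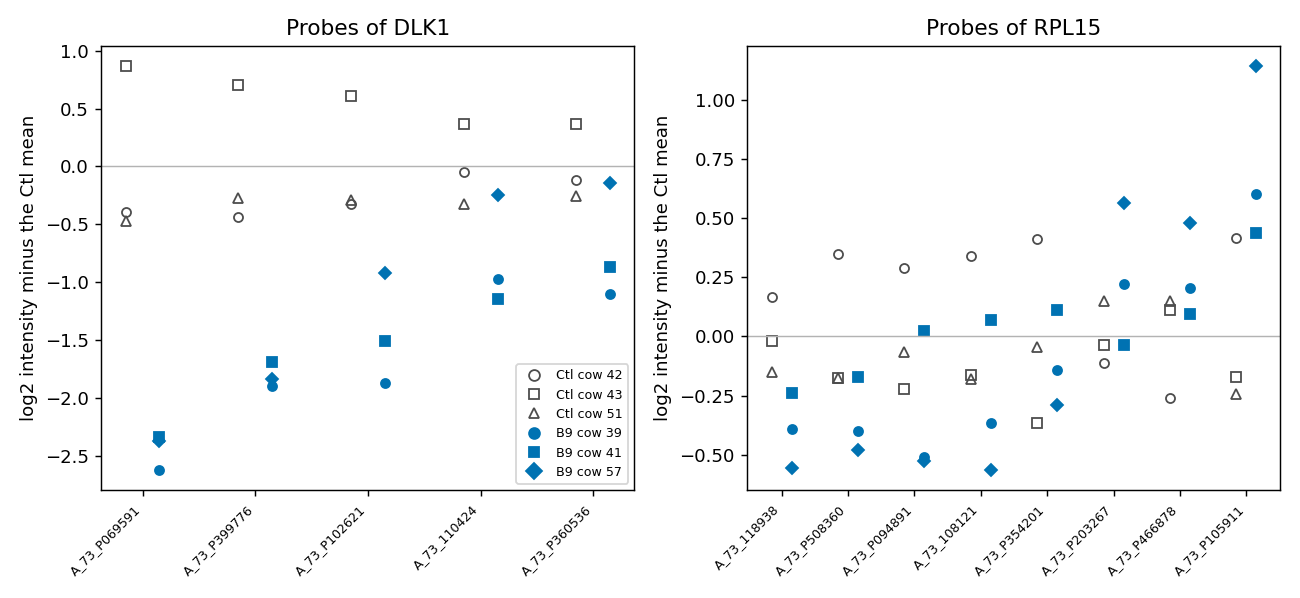
Log2 intensity of each probe of DLK1 (left) and RPL15 (right) minus the mean of the 3 Ctl arrays for that probe, with 1 point per cow, open grey for Ctl and filled blue for B9. B9 cow 57 (diamond) is at −2.37 on DLK1 probe A_73_P069591 and at −0.25 on A_73_110424, and RPL15 has 5 probes with a lower B9 mean and 3 with a higher one.

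MYOM1 encodes myomesin, a protein of the M band of striated muscle. Its brightest probe read 12.84, 13.58 and 11.96 in Ctl and 9.52, 11.06 and 10.45 in B9, and the groups did not overlap. The intensity in Ctl was 5.46 times that in B9. A second, dimmer probe (A_73_P064251) had the same order of cows, from 7.27 to 8.20 in Ctl and from 6.25 to 6.99 in B9, and the remaining probe was not well above background on any of the 6 arrays. Of 26 muscle genes found, 16 were well above background on all 6 arrays, MYOM1 alone was lower at an unadjusted p under 0.05, and ACTA1, skeletal muscle actin, was the single gene higher at that level, against 1.65% lower and 1.53% higher of all genes. Without cow 57, 3 were lower and 1 was higher, against 0.923% and 0.826%. The levels of ACTA1 were 9.48, 9.44 and 9.54 in Ctl and 9.79, 9.79 and 9.75 in B9, a difference of 0.29 (standard error 0.09) with little spread in either group. Its 3 other probes differed by 0.01 to 0.21. The mean level of the muscle genes well above background was 7.86 to 8.14 in Ctl and 7.72 to 8.41 in B9, highest in cow 57, which had the highest level of the 6 arrays in 12 of the 16, against 38.1% of all genes well above background.

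The 2 unnamed transcripts called by Cyber-T followed. TC326817 read 11.81, 12.38 and 12.98 in Ctl and 10.66, 10.24 and 8.81 in B9, a difference of −2.49 (standard error 0.85). ENSBTAT00000025538 read 7.69, 7.31 and 6.82 in Ctl, was well above background on 1 of the 3 B9 arrays, and had measured levels of 6.09, 6.48 and 6.08 there. At such low levels the size of the difference depends on the background correction. It was −1.06 as processed here, −1.60 with no background correction, −2.21 with an offset of 0 and −3.84 with the processed signal of the image software.

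Over all 19432 genes well above background, 2.11% were lower and 1.99% higher with B9 at an unadjusted limma p under 0.05. Groups did not overlap for 4.69% (lower) and 3.32% (higher). Of 11068 named genes, 267 were well above background on all 6 arrays, had groups that did not overlap and had such a p. Of these, 109 were lower and 158 higher with B9. The 6 furthest down were MYOM1, CXCL3, IGFLR1, CRADD, MDM2 and LOC404103, and the 6 furthest up were LOC617654, NNAT, AZGP1, ST6GAL1, CEACAM19 and BHLHE40. CXCL3, a chemokine that draws neutrophils, read 12.89, 12.39 and 11.99 in Ctl and 9.97, 11.78 and 9.91 in B9 (difference −1.87, standard error 0.66). Cow 41 came within a short distance of the lowest control. IGFLR1, a receptor of the IGF-like family, was uniform in B9 at 7.29, 7.35 and 7.11, whereas the controls read 9.59, 9.75 and 7.36, so its mean difference came from 2 of the 3 Ctl cows. CRADD, an adaptor protein of cell death signalling, was uniform in Ctl, at 10.60, 10.49 and 10.64, and lower in B9, at 9.81, 10.06 and 8.42. MDM2, the ubiquitin ligase of p53, read 10.64, 11.18 and 10.92 in Ctl and 10.04, 10.61 and 8.68 in B9, and its other probes differed by −0.41 and −0.42. For CRADD and MDM2 the lowest value was that of cow 57, and without it their differences were −0.64 and −0.59 against −1.14 for each.

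NNAT, neuronatin, an imprinted membrane proteolipid, was higher with B9 on all 3 of its probes, by 1.16 to 1.69. Its brightest probe read 8.37, 8.49 and 7.71 in Ctl and 10.09, 8.83 and 10.72 in B9. AZGP1 encodes zinc alpha-2-glycoprotein, a secreted protein with a role in the mobilization of lipid. It read 11.14, 12.18 and 11.77 in Ctl and 13.27, 12.45 and 13.09 in B9, and its 3 probes were higher by 1.21 to 1.39. On the dimmer probes, A_73_P270716 and A_73_120341, the groups overlapped, with B9 cow 41 (11.36 and 10.85) below Ctl cow 43 (12.19 and 11.30). The difference of the brightest probe, 1.24, was 1.16 without cow 57 and 1.48 without Ctl cow 43. ST6GAL1, the sialyltransferase that caps glycans of plasma proteins, read 8.20, 8.33 and 8.68 in Ctl and 9.95, 8.71 and 9.57 in B9, a difference of 1.01, while its second probe differed by 0.21 with overlapping groups. BHLHE40, a repressor of the circadian clock, was higher by 0.86 (standard error 0.38), and its second probe by 0.74. CEACAM19 was nearly constant in Ctl, at 8.54, 8.54 and 8.48, and read 9.12, 8.72 and 10.38 in B9. Its difference of 0.89 was 0.40 without cow 57, and its second probe was not well above background on any B9 array. LOC617654 spanned 7.24 to 9.84 in Ctl and 9.84 to 10.75 in B9, so that its highest control and its lowest treated cow were equal to 2 decimals.

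**Figure D2:**
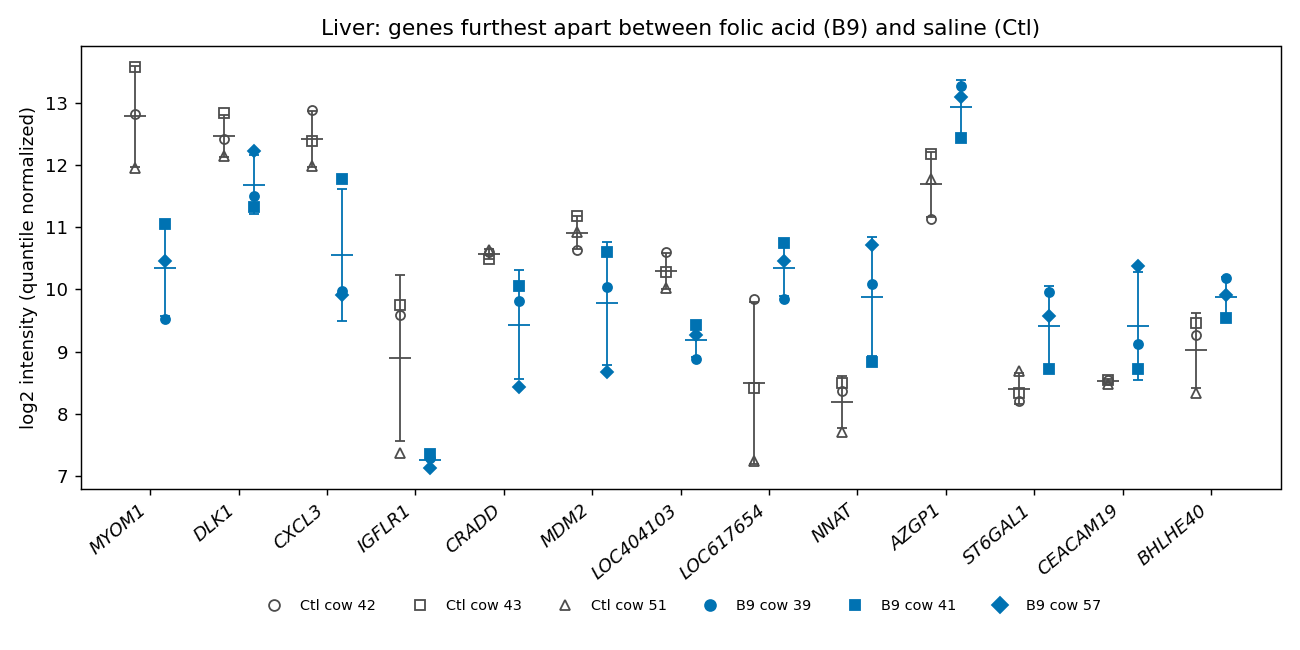
Log2 intensity of the brightest probe of DLK1 and of the 12 named genes furthest apart in the liver, with 1 point per cow (open grey Ctl, filled blue B9), and the mean and SD of each group of 3 as a bar. The groups do not overlap for any gene shown except DLK1, where B9 cow 57 at 12.23 lies above Ctl cow 51 at 12.15.

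Genes of the folate cycle, the pathway the vitamin feeds, were described next. Of 25 genes of folate enzymes and transport listed, 20 were found and all 20 were well above background on the 6 arrays. At an unadjusted limma p under 0.05, 2 were lower with B9 and 0 were higher, against 1.65% and 1.53% of all genes. The median difference was −0.01, against 0.01 over all genes, and it was 0.10 against 0.12 when scaled by the 75th percentile. GLDC, the decarboxylase of the glycine cleavage system, read 13.02, 12.77 and 13.00 in Ctl and 12.25, 12.87 and 11.60 in B9, with cow 41 inside the control range. MTHFD1, the cytosolic enzyme that interconverts the one-carbon forms of folate, read 14.31, 14.21 and 14.52 in Ctl and 13.73, 14.21 and 13.81 in B9. The differences were −0.69 (standard error 0.29) and −0.43 (standard error 0.18), and without cow 57 they were −0.37 and −0.38. MTHFD1 differed by −0.24 when scaled by the 75th percentile. MTR, methionine synthase, which joins the folate and methionine cycles, differed by −0.08. The carriers SLC19A1 and SLC46A1 differed by 0.33 and 0.56, within the spread between B9 cows. TYMS, thymidylate synthase, was 10.06 ± 0.08 (SD, n = 3) in Ctl and 9.90 ± 0.04 (SD, n = 3) in B9, and the groups did not overlap although the difference was −0.16. Without cow 57, 0 of the 20 genes were lower at an unadjusted p under 0.05 and 1 was higher, against 0.923% and 0.826% of all genes. Of 13 genes of the methionine cycle, choline oxidation and transsulfuration, 0 had an unadjusted limma p under 0.05 in either direction. BHMT, which methylates homocysteine with betaine, had the largest difference of them, −0.49, with an SD of 0.13 in Ctl and 0.60 in B9.

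Among the genes that handle vitamin B12, MMAA had the smallest unadjusted limma p of the genes named here, 4.37e-05. This mitochondrial protein, which guards the loading of the B12 cofactor onto methylmalonyl-CoA mutase, read 12.10, 12.37 and 12.37 in Ctl and 11.69, 11.73 and 11.74 in B9. The 3 treated cows were close together, all below the lowest control, and the difference was −0.56, with a standard error of 0.08 and a limma adjusted p of 0.906. The other probes of MMAA were lower as well, with differences of −0.38 and −0.43 and groups that did not overlap. The difference was −0.57 without cow 57 and −0.52 without Ctl cow 43, and −0.65 to −0.41 over all alternatives. With the processed signal of the image software MMAA did not reach an unadjusted limma p under 0.05. By Cyber-T its adjusted p was 0.959. MMAB, which makes the cofactor, was 11.38 ± 0.05 (SD, n = 3) in Ctl and 11.02 ± 0.15 (SD, n = 3) in B9, and PCCB, a subunit of propionyl-CoA carboxylase, was 14.37 ± 0.06 and 14.17 ± 0.10 (SD, n = 3 each). These were the 3 of 14 genes of the list whose B9 arrays all lay below the Ctl arrays, and 0 lay above, against 4.6% and 3.61% of all genes. The median of the list was −0.04, but 0.13 when scaled by the 75th percentile. The mutase itself, MMUT, differed by −0.23, with overlapping groups.

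Genes of sugar and amino acid metabolism came next. Of 27 genes of gluconeogenesis, glycolysis and glycogen, 5 had all B9 arrays below the Ctl arrays and 1 had all above. Over all 19432 genes well above background the same shares were 4.69% and 3.32%. The mean level of the 27 genes was 12.09 to 12.14 in B9 and 12.18 to 12.29 in Ctl. At an unadjusted limma p under 0.05, 1 was lower and 0 were higher with all arrays, against 1.65% and 1.53% of all genes. Without cow 57, 0 were lower and 2 higher, against 0.923% and 0.826%. The median of the list was −0.15, but 0.04 when scaled by the 75th percentile. SLC2A2, the glucose transporter by which hepatocytes release glucose, read 11.79, 11.43 and 12.36 in Ctl and 11.32, 11.20 and 10.10 in B9. Its second probe had the same order of groups and differed by −0.82. Without cow 57 the difference of the brightest probe went from −0.99 to −0.60. Of 16 genes of the urea cycle and amino acid breakdown, 2 were lower at an unadjusted p under 0.05 and 0 were higher, against 1.65% and 1.53% of all genes. By separation of the groups, 1 had all B9 arrays below the Ctl arrays and 2 had all above, against 4.6% and 3.61%. HPD, an enzyme of tyrosine breakdown, read 14.62, 14.33 and 14.81 in Ctl and 14.26, 13.92 and 13.84 in B9. OTC, ornithine transcarbamylase of the urea cycle, differed by −0.49 (standard error 0.17), with B9 cow 39 inside the control range. The median of this list was −0.37, became −0.16 when scaled by the 75th percentile, and −0.07 without cow 57. Then 1 gene was lower at an unadjusted p under 0.05, against 0.923% of all genes. DDIT4, a stress-induced inhibitor of mTORC1, read 12.86, 12.99 and 12.69 in Ctl and 12.02, 12.40 and 11.29 in B9, and its second probe likewise had all B9 arrays below the Ctl arrays. Of the 16 genes of amino acid and folding stress, DDIT4 was the single one lower and 0 were higher at that level, against 1.65% and 1.53% of all genes, while without cow 57 there were 0 in either direction.

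Several genes of lipid metabolism were spread more widely among the B9 cows than among the Ctl cows. G0S2, the protein that inhibits the main triglyceride lipase, had the largest positive difference of the lipid genes. It read 11.22, 12.50 and 11.84 in Ctl and 13.57, 12.41 and 14.50 in B9, and cow 41 lay inside the control range. GPAM, which begins the synthesis of glycerolipids, read 11.12, 11.38 and 12.11 in Ctl and 10.66, 11.15 and 10.32 in B9, a difference of −0.82, while its other probes differed by −0.29 and −0.35. DECR1 and HADH, enzymes of mitochondrial fatty acid oxidation, differed by −0.51 and −0.43, each with all B9 arrays below all Ctl arrays on the brightest probe, while the second probe of HADH differed by −0.042. They belonged to 4 of 28 oxidation genes with that order and 0 with the opposite order, against 4.6% and 3.61% of all genes. Without cow 57 the differences of DECR1 and HADH were −0.24 and −0.32, and 0 oxidation genes had an unadjusted p under 0.05. Of the 28 genes, 10 had a mean above that of Ctl, and 17 had one when scaled by the 75th percentile, where HADH differed by −0.25. The genes of cholesterol and bile acid metabolism, 26 in number and all well above background, had the lowest median of the 33 lists, −0.46. With a single exception (ABCG8, 0.24) they had a mean below that of Ctl, and yet 0 had an unadjusted limma p under 0.05. Cow 57 was the lowest of the 6 arrays for 23 of the 26, or 88.5%, against 32.8% over all genes well above background. The mean level of the list was 11.51 in cow 57, 12.61 and 13.30 in cows 39 and 41, and 12.74 to 13.19 in Ctl. Without cow 57 the median was −0.04. With the processed signal of the image software it was −0.35, and the proliferation list was lower, at −0.50. Against the same Ctl cows, the liver groups that do not hold cow 57 had medians of −0.45 with B12 and −0.45 with both vitamins.

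The genes of unsaturated fatty acid and sterol synthesis with the largest differences of their lists, chosen after their values were seen, show how far the 3 treated cows were apart. FADS2, the delta-6 desaturase, read 14.56, 17.23 and 11.21 in cows 39, 41 and 57, against 16.47, 16.81 and 16.59 in Ctl. SCD, the delta-9 desaturase, read 13.64, 15.72 and 9.80 in the same B9 cows and 13.87 to 15.07 in Ctl. MSMO1, an oxidase of sterol synthesis, read 15.84, 16.60 and 12.46 in B9 and 16.12 to 16.75 in Ctl. In each of the 3 genes cow 57 was lowest, and cow 41 lay within the control range or above it. The SD of FADS2 was 3.02 in B9 and 0.17 in Ctl. Another order was seen for IGFBP1, the IGF-binding protein that rises in liver when insulin is low. It read 15.44, 13.52 and 15.66 in Ctl and 10.47, 12.94 and 14.71 in B9, with cow 57 in the control range and cow 39 lowest. Its difference was −2.17 (standard error 0.97) and became −3.17 without cow 57. Over all alternatives of the processing it ranged from −3.17 to −0.42. PRLR, the prolactin receptor, read 12.15, 12.05 and 12.72 in Ctl and 11.97, 11.32 and 10.74 in B9, and its second probe differed by −0.49.

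**Figure D3:**
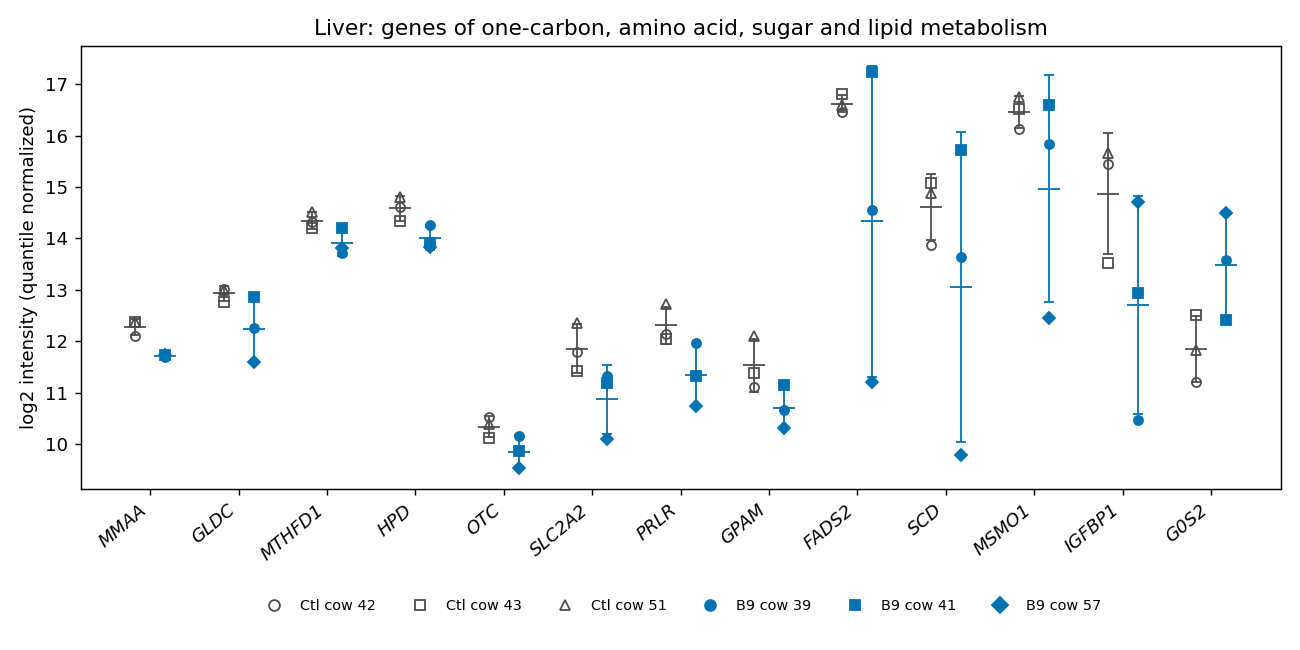
Log2 intensity of the brightest probe of 13 genes of one-carbon, amino acid, sugar, lipid and growth hormone metabolism in the liver, with 1 point per cow (open grey Ctl, filled blue B9), and the mean and SD of each group of 3 as a bar. MMAA has the narrowest B9 values, 11.69 to 11.74, and FADS2 the widest, 11.21 to 17.23.

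Most genes of protein synthesis and respiration had a mean above that of Ctl. Of 47 ribosomal protein genes, 38 had a mean above that of Ctl, against 51.8% of all genes well above background. At an unadjusted limma p under 0.05, 4 were higher and 0 were lower, against 1.53% and 1.65% of all genes, and the median was 0.10. Cow 57 had the highest level of the 6 arrays for 33 of the 47 (38.1% over all genes well above background), and without it the median was 0.04 and 0 were higher at that level. RPL11 differed by 0.18 and RPSA by 0.57, the latter by 0.37 without cow 57 and by 0.31 without Ctl cow 43. RPL15 differed by 0.73 on its brightest probe, but of its 8 probes 5 were lower, and the mean of all probes gave −0.030. Of 35 subunits of the mitochondrial respiratory chain, 31 had a mean above that of Ctl, and the mean level was 14.23 to 14.25 in B9 against 14.12 to 14.17 in Ctl. In this list 4 genes had all B9 arrays above all Ctl arrays and 0 had them below, against 3.32% and 4.69% of all genes well above background. NDUFB8, a subunit of complex I, read 14.02, 14.06 and 14.02 in Ctl and 14.44, 14.18 and 14.39 in B9. NDUFA1, of the same complex, differed by 0.31 (standard error 0.13). The medians of the ribosomal and respiratory lists were 0.34 and 0.26 when scaled by the 75th percentile, and NDUFB8 differed by 0.51 in place of 0.31. The median of the respiratory list was 0.06, and 0.08 without cow 57, when 1 gene was higher at an unadjusted p under 0.05 against 2 with it. The shares of all genes were 0.826% without cow 57 and 1.53% with it.

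**Figure D4:**
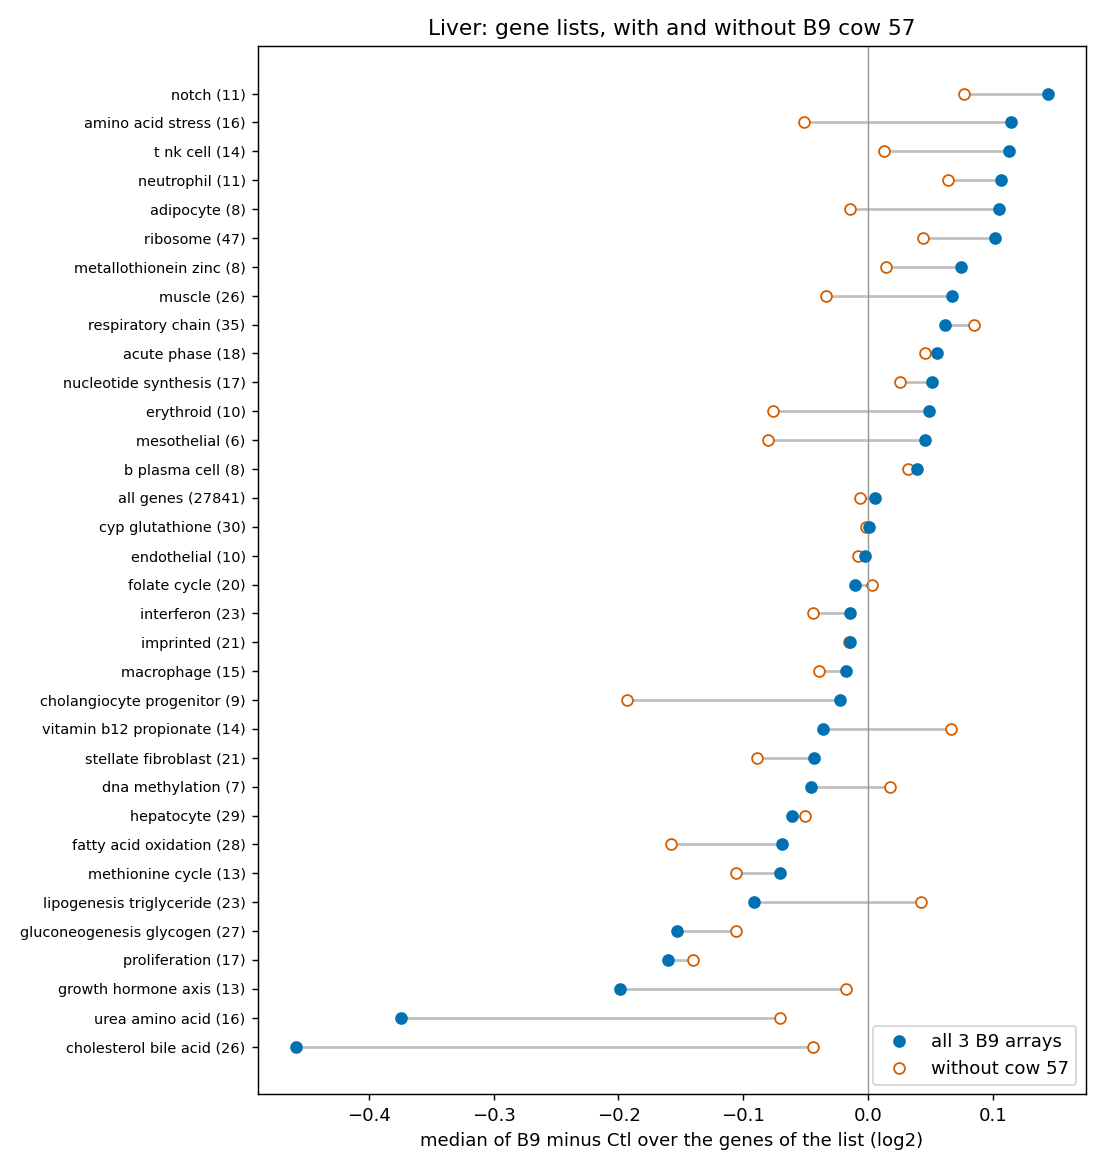
Median of B9 minus Ctl (log2) over the genes found of each of 33 lists and over all genes, with the number of genes in parentheses. Filled blue points use all 3 B9 arrays and open orange points leave out cow 57; the median of cholesterol and bile acid genes goes from −0.46 to −0.04, and that of respiratory chain genes from 0.06 to 0.08.

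Imprinted genes and Notch genes were listed because of DLK1. Of 21 imprinted genes found, 2 were lower and 1 was higher at an unadjusted limma p under 0.05, against 1.65% and 1.53% of all genes. The lower ones were DLK1 and MEG3, the noncoding RNA of the same imprinted domain, and the higher one was NNAT. Without cow 57 the counts were 1 lower and 0 higher, against 0.923% and 0.826% of all genes. Without Ctl cow 43 they were 0 and 2, against 0.977% and 1.05%. MEG3 read 7.23, 7.57 and 7.30 in Ctl and 6.98, 6.98 and 6.23 in B9, so all treated cows lay below the controls, with a difference of −0.64, and −0.39 without cow 57. At these low levels its size also depends on the background correction, with −1.14 at an offset of 0 and −1.66 with the processed signal. MEST and SNRPN differed by 0.48 and 0.32 and were not past that level. Of 11 Notch genes, RBPJ, the transcription factor of the pathway, was the single one past it, against 1.65% of all genes in its direction, with 10.89, 11.14 and 11.10 in Ctl and 10.84, 10.69 and 10.04 in B9, and its second probe differed by −0.064. Without cow 57 its difference went from −0.52 to −0.28, and 0 Notch genes were past that level without cow 57 or without Ctl cow 43. HES1, a Notch target, differed by 0.56, with an unadjusted limma p above 0.05.

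Each list of inflammation and of other cell types had at most 1 gene past an unadjusted p of 0.05. Against the shares of all genes, 1.53% higher and 1.65% lower, lists this short cannot be told apart from the background by such a count. Of 18 acute phase genes, 1 was higher at an unadjusted limma p under 0.05. It was ITIH4, a plasma protein made by hepatocytes, with 18.08, 17.89 and 18.12 in Ctl and 18.54, 18.20 and 18.30 in B9. HP, haptoglobin, read 17.40, 18.04 and 17.37 in Ctl and 18.39, 17.25 and 18.57 in B9, with overlapping groups on all 3 probes. MT1A, a metallothionein, read 17.02, 17.81 and 17.73 in Ctl and 17.10, 17.64 and 18.73 in B9. LOXL4, a lysyl oxidase of the matrix and the single gene past that level of 21 in the stellate cell and fibroblast list, read 9.98, 10.09 and 10.83 in Ctl and 11.31, 10.47 and 11.70 in B9. SFRP1, a secreted Wnt antagonist, differed by −0.58 on its brightest probe, but by 0.095 without cow 57. Its other probes differed by −0.83 and −0.72, and by −0.29 and −0.31 without cow 57. GSTA5, a glutathione transferase, differed by −0.41, and by −0.12 without cow 57. CYP2D14, a drug-metabolizing cytochrome, differed by −0.24, and by 0.020 with the processed signal of the image software. LGALS3BP, a secreted protein induced by interferon, read 13.77, 14.02 and 13.89 in Ctl and 14.17, 14.14 and 14.66 in B9, the single one of 23 interferon genes past that level. Its difference was 0.44, and 0.27 without cow 57. Among 15 macrophage genes, MSR1, a scavenger receptor, read 8.99, 8.99 and 8.86 in Ctl and 8.80, 8.56 and 8.26 in B9, a difference of −0.41 that was −0.27 without cow 57, and its second probe differed by −0.24 with overlapping groups. The mean level of the list was 11.69 to 11.78 in Ctl and 11.61 to 11.76 in B9. In the lists of plasma cells and endothelium, PRDM1, a transcription factor of plasma cells, differed by −0.36 on its brightest probe and by −0.17 to 0.0021 on the others, and KDR, the VEGF receptor of endothelium, by −0.28 and 0.17 on its 2 probes. Without cow 57 the brightest probe of PRDM1 differed by −0.23 and that of KDR by −0.20. The lists for T and NK cells, neutrophils, red cells, fat cells, bile duct or progenitor cells and mesothelium had 0 genes past that level. The part of cell composition in the differences above was not tested.

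Slide 4 held a B9 array and a Ctl array together, those of cows 57 and 42, so within a slide the comparison is of 1 cow with 1 cow. There, cow 57 minus cow 42 was −2.38 for MYOM1, −0.20 for the brightest DLK1 probe, −1.97 for A_73_P069591, −0.36 for MMAA, 1.96 for AZGP1, 2.35 for NNAT and 3.28 for G0S2. With slide as a fixed block the estimates were −2.07 for MYOM1, −0.09 for DLK1, −0.43 for MMAA, 2.00 for AZGP1, 2.85 for NNAT and 2.73 for G0S2, all of the same sign as without it. Cows 39 and 41 were the only liver arrays on slides 2 and 3, so their values drop out of this fit. Its B9 estimates rest on cow 57 alone.

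The other liver groups were used to see where folic acid alone differed from vitamin B12 alone (10 mg a week, 4 cows). limma called 1 gene (0.00359%) between B9 and B12, IFI6, an interferon-induced mitochondrial protein. Its level was 12.65, 12.75 and 13.42 in B9, 16.25 to 17.49 in the 4 B12 cows and 12.98 to 13.36 in Ctl. B9 minus B12 was −3.93, with a standard error of 0.31 and a limma adjusted p of 0.00976. All B9 arrays lay below all B12 arrays, for which a two-sided exact permutation test gives p = 0.0286, its minimum for 3 against 4. IFI6 was not called without B9 cow 39, B9 cow 41, B12 cow 40 or B12 cow 52, nor with the processed signal or slide as a fixed block. With each array of both groups left out in turn its difference stayed between −4.17 and −3.72, and the limma adjusted p was 0.0113 to 0.0791. IFI27, another interferon-induced gene, read 12.77, 13.81 and 15.24 in B9 and 16.55 to 17.47 in B12, with an adjusted p of 0.874 from limma. Cyber-T called 9 genes between B9 and B12 (0.0323%), among them IFI6, IFI27, MT1A and ITIH4. Against Ctl, the 23 interferon genes found had a median of −0.01 with B9 (0.06 when scaled by the 75th percentile), 0.71 with B12 and −0.29 with both vitamins, values that share the control cows. For genes of the comparison with Ctl, B9 minus B12 was 0.03 for DLK1, −0.08 for MYOM1 and −0.28 for G0S2, with standard errors of 0.29, 0.75 and 0.55 and none past the adjusted test. MMAA was 11.88 to 12.02 in B12 and 11.78 and 11.80 with both vitamins, between B9 and Ctl, and B9 minus B12 was −0.22, with a standard error of 0.08 and a limma adjusted p of 0.874.

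**Figure D5:**
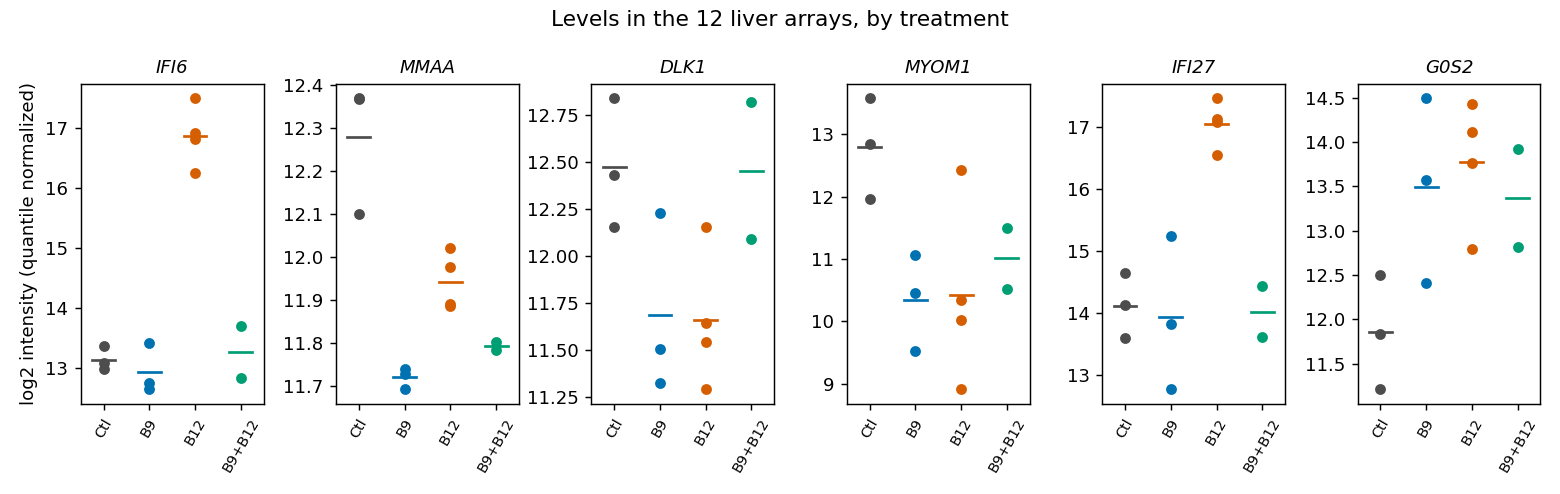
Log2 intensity of the brightest probe of 6 genes in the 12 liver arrays by treatment (Ctl, B9, B12, and B9+B12), with 1 point per cow and a line at each group's mean; each gene has its own axis. IFI6 lies at 12.65 to 13.42 in B9 and 16.25 to 17.49 in B12, and MMAA is lowest in B9, at 11.69 to 11.74.

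In the mammary gland of the same 6 cows the difference between B9 and Ctl was compared with that in liver. limma called 0 genes (0%) for the difference of the differences, with a smallest adjusted p of 0.997, and 1132 of 43653 probes had an unadjusted p under 0.05. MMAA differed by −0.65 in the mammary gland and −0.56 in liver, and DLK1 by −0.97 and −0.79. MYOM1 was 0.50 in the mammary gland against −2.45 in liver, AZGP1 −0.06 against 1.24, and NNAT 0.03 against 1.69. None of these differences between the tissues passed the adjusted test, so they were not shown to differ.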

How the data were processed

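The authors hybridized labelled RNA of single biopsies to 1-colour Agilent bovine arrays (45220 spots) and deposited the scanner output, which gives the brightness of every spot and of the area around it as median intensities, and a table of log2 values after background correction and normalization (Agilent Feature Extraction, 10.7.3.1 in the file headers and 9.1 in the submitters' processing notes). The log2 table was used as an alternative.

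Here the median intensities were corrected with normexp (offset 50), controls and outlier spots were left out, the 12 liver arrays were normalized by quantiles, and spots of a probe were averaged (43653 probes). limma 3.58.1 (R 4.3.3) fitted the 4 treatment groups of the liver together, with Benjamini-Hochberg adjustment over all probes. Cyber-T, the methods' test, used a window of 101 probes and a confidence of 10. Differences between tissues were fitted over 25 arrays. The number of arrays limits the precision. On simulated data with large known changes both limma and Cyber-T recovered most of them, and Cyber-T made more false calls than limma. The simulated noise was independent, of equal spread in every group and drawn from the variances of limma. It held no array that stood apart, so it does not show how either test fares on these data.

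Names were paired with RefSeq symbols by accession (53.9% of probes have one); no position is given because the builds differ. Named genes were DLK1 and MYOM1, 7 of the genes the study measured again in liver, those its discussion singles out, genes called by Cyber-T, the 6 furthest in each direction among named genes with separated groups, and members of 33 gene lists (597 of 742 genes found) with the smallest p. The members and lists were chosen with earlier results of these data known. Alternatives changed the background correction, scaling, filter on dim probes, outlier spots, slide, groups fitted, test and probe choice, and left out each array; list medians under other scalings were added after the data were seen. Cow numbers pair the tissues, since the same animal gave both; the correlation of deviations across tissues was −0.25 to 0.26 over 12 cows, and 4 exceeded 0.1.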

Additional observations from a re-analysis of the deposited data

How the results depend on the processing

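The count of genes called between B9 and Ctl was 0 by limma under every alternative of background, scaling, filter, slide, groups, table, array weights and with each array left out (0 to 0). By Cyber-T it was 4, and 4 on the authors' table, the same 4 genes. The smallest adjusted p was 0.0722 without B9 cow 41, 1 without cow 57 and 0.157 with slide as a fixed block. For B9 against B12 the count was 0 with the processed signal and 0 with slide as a fixed block, 9 by Cyber-T, and 0 to 1 with each array left out. It was 0 without B9 cow 39 and without B12 cows 40 and 52, and without B9 cow 41 the 1 called was another transcript than IFI6. For the difference between tissues the count was 0 under all alternatives, including the cow as a replicate block (0, smallest adjusted p 0.998). Of 867 recomputed differences of 51 genes, 857 kept their sign and side of the threshold. The others turned their sign. IFI27 was 0.041 with the processed signal, 0.038 with the 75th percentile in place of quantiles, 1.30 with slide as a fixed block, and −0.82 to 0.41 with each array left out (0.083 without Ctl cow 43). With each array left out MT1A was −0.15 to 0.67, SCD −2.89 to 0.074 and SFRP1 −0.97 to 0.095, and their sign turned without cow 57. CYP2D14 was 0.020 with the processed signal, and RPL15 was −0.030 as the mean of all probes. With slide as a fixed block, where cow 57 alone carries the B9 estimate, 31 of the 51 moved by over 1.5 times. Without cow 57 20 did, as did 14 with the processed signal, 14 with the mean of all probes and 9 with the 75th percentile. The cause of these other moves was not tested.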
